A study of Mus musculus with 11 samples.

Results

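The genes described here are 10 nucleic acid sensors and interferon regulators, Ifih1, Dhx58, Zbp1, Irf1, Irf7, Irf9, Isg15, Usp18, Rsad2 and Cmpk2. Their rows were found by symbol, through the RefSeq names of the Entrez IDs. The 10 were chosen with earlier results of these data known, so they are not a set picked blind. All 10 were found among the 24421 genes of the count file, and all 10 were among the 13711 genes tested.

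The RNA came from natural killer (NK) cells of C57BL/6 mice that carry Ly49H, an activating receptor that recognises a protein of mouse cytomegalovirus (MCMV), and in vivo infection with this virus is the labelled treatment. The mice were mixed bone marrow chimeras in which LDHA-deficient cells (KO, CD45.2) and wild-type cells (WT, CD45.1) developed in one host, and the spleen was the tissue. Ldha encodes a subunit of the enzyme that converts pyruvate to lactate in glycolysis. The 11 libraries fall by title into KO D0 (n = 3), KO D2 (n = 3), WT D0 (n = 2) and WT D2 (n = 3), and each is labelled as 1 mouse. D0 and D2 are the terms of the titles, because the label for days after infection reads 2 in every library, so that whether D0 mice were infected is not known from them. Libraries titled WT have a genotype label that names both genotypes, and they were grouped by title. What drove the deletion, which part of Ldha was removed and the age of the mice are not given in the labels. The CD45 allele differs between KO and WT cells along with Ldha, and the effects of these cannot be told apart.

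MDA5 (the product of Ifih1) is a cytosolic receptor for double-stranded RNA, and LGP2 (Dhx58) is its relative that modulates such sensing. MDA5 acts through the adaptor MAVS to switch on type I interferon. Interferon then signals through JAK kinases to a complex containing IRF9 that binds the interferon-stimulated response element (ISRE) of many target genes. Most of the 10 genes are themselves such targets, so that the sensors, the factors that transmit the signal and the proteins that limit it are induced together in cells that receive interferon, NK cells included.

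RefSeq (GRCm38.p6) gave a start-site window for 7 of the 10 genes, and these are Irf1, Irf7, Irf9, Ifih1, Isg15, Rsad2 and Cmpk2. Dhx58, Zbp1 and Usp18 are named only. The 250 bases before the start were searched on both strands for an ISRE-like motif, GAAANNGAAA, and for a gamma-activated site motif, TTCNNNGAA, of which overlapping matches were counted separately. The ISRE-like motif lay in the windows of Isg15 and Rsad2, and 2.98% of the 32851 windows in the RefSeq table hold it. The gamma-activated site motif lay in the first window of Irf1, and 7.02% of the windows hold it. Isg15 held 3 overlapping ISRE-like matches, the first from base -78 to -69 and the last from -66 to -57, counted from the start site. Rsad2 held 1, from -120 to -111, and the Irf1 match ran from -90 to -82. The searched letters were not found in the Cmpk2 window, which says nothing about binding elsewhere. Rsad2 and Cmpk2 are neighbours on chromosome 12 that point away from each other, with 12664 bases between them. The sequences of Isg15 (chr4:156200819-156201068, minus strand), Rsad2 (chr12:26456453-26456702, minus strand), Cmpk2 (chr12:26468965-26469214, plus strand) and Irf1 (chr11:53769764-53770013, plus strand) are shown because these genes differ most in the results, Isg15 with the largest change between days, Irf1 with none called, and the neighbours Rsad2 and Cmpk2 with different patterns. Each is written 5′ to 3′ on the strand of its gene, with the matches in capitals.
Isg15: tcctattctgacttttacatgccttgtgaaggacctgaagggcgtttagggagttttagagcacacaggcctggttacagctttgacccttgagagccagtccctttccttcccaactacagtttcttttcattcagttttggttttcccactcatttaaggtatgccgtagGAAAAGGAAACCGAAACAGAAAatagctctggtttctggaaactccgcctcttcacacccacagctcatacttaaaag
Rsad2: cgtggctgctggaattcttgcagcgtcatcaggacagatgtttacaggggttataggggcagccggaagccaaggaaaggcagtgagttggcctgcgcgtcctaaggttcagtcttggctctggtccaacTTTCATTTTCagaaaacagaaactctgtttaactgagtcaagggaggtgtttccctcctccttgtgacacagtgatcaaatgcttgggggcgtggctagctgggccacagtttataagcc
Cmpk2: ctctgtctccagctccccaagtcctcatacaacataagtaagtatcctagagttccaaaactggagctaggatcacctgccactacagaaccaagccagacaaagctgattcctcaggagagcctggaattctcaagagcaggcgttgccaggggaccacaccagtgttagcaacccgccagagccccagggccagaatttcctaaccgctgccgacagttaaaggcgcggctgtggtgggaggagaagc
Irf1: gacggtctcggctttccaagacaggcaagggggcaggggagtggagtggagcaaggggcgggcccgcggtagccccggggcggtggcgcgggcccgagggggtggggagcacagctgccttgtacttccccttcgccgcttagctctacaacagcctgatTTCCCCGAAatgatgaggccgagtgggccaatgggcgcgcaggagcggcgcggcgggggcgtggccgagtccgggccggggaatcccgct

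The targeted gene was low in every KO library. Ldha ranged from 91.1 to 114.6 CPM (counts scaled to a common library size with TMM factors) over the 6 KO libraries, against 563 to 3101 CPM over the 5 WT libraries. Total counts per library ran from 19452460 to 27992092. Summed over 8 defining genes, NK cell markers ranged from 8686 to 17030 CPM per library, while 6 T cell markers summed to between 12.5 and 30.7 CPM and 4 B cell markers to between 4.03 and 9.15 CPM. Gzma and Prf1 had the largest means of the 8. At D2 against D0, 3 of the 8 were called higher and 5 lower in KO cells (27.0% and 34.5% of all genes). In WT cells 2 were higher and 4 lower (27.5% and 26.0%). Against WT, 0 were higher and 3 lower in KO D2 (1.61% and 14.5%), and 0 and 1 in KO D0 (0.0948% and 0.0583%). Mean Ncr1 was 674 CPM in KO D0 and 1308 CPM in WT D0, and 873 CPM in KO D2 and 1523 CPM in WT D2. The sum of 5 macrophage and monocyte markers was lower at D2, at 11.8 to 18.8 CPM in KO D2 and 12.8 to 17.6 CPM in WT D2, against 23.3 to 45.6 CPM in KO D0 and 41.0 to 61.5 CPM in WT D0. The sum of 5 plasmacytoid dendritic cell markers ranged from 68.9 to 76.9 CPM in KO D2 and 63.0 to 66.3 CPM in WT D2, against 60.0 to 72.1 CPM in KO D0 and 59.9 to 62.9 CPM in WT D0. Of the 4 of these genes that were tested, 1 was called higher and 2 lower at D2 than at D0 in KO cells (27.0% and 34.5% of all genes). In WT cells 0 were higher and 1 lower (27.5% and 26.0%). Most of the sum was Tcf4, at group means of 67.2 CPM in KO D2 and 59.0 CPM in WT D2, against 55.3 CPM (KO D0) and 51.3 CPM (WT D0). Cox6a2 was called lower at D2, at 4.34 CPM in KO D2 and 3.90 CPM in WT D2, against 8.98 CPM (KO D0) and 7.72 CPM (WT D0), as group means. Summed over 3 genes, erythroid markers ranged from 48.8 to 158 CPM in KO D2 and 27.4 to 243.5 CPM in WT D2, against 77.5 to 700.2 CPM in KO D0 and 150.1 to 640.0 CPM in WT D0. The sum of 4 ILC1 markers was 2.62 to 4.66 CPM in KO D2 and 2.94 to 3.89 CPM in WT D2, against 7.25 to 9.25 CPM in KO D0 and 7.09 to 11.2 CPM in WT D0. The part of these cells in the changes described next was not tested. In sorted bulk RNA a lower level can also come from fewer expressing cells or from less RNA per cell, which cannot be told apart.

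**Figure D1:**
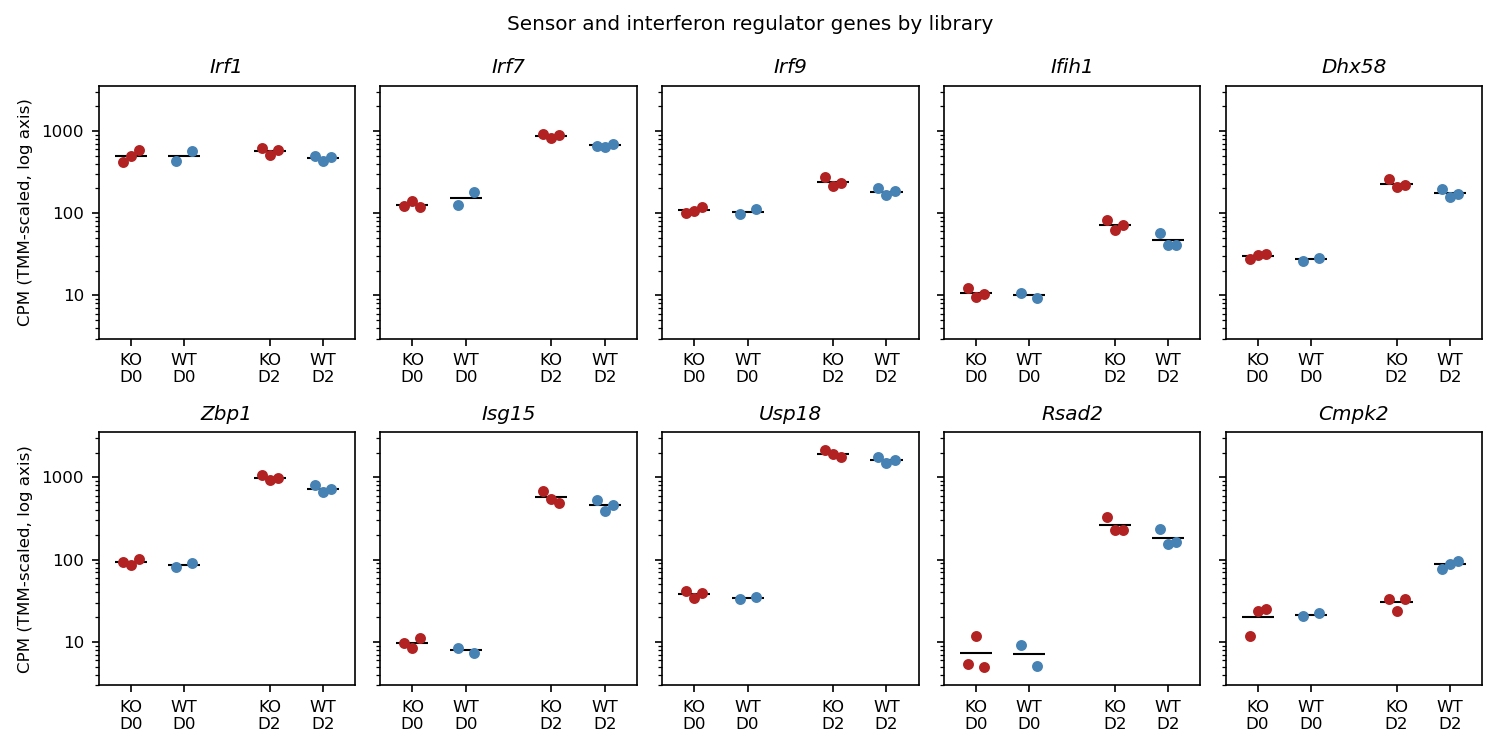
TMM-scaled CPM (log axis, the same for all panels) of the 10 genes in each library. Points are libraries (red KO, blue WT) in the order of their replicate numbers and lines are group means. D2 libraries lie above D0 libraries of their genotype for 8 genes, the exceptions being Irf1 and, in KO, Cmpk2. The share of all genes that lie apart between days was not computed. Cmpk2 is the gene whose KO D2 points all lie below the WT D2 points.

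Between the title days the group rose in both genotypes. In KO cells 8 of the 10 genes were higher at D2 than at D0 and 0 were lower, where 27.0% of all genes tested were called higher and 34.5% lower. In WT cells 9 of the 10 were higher and 0 lower, against 27.5% higher and 26.0% lower over all genes. The median log2 fold change of the 10 was 2.84 in KO cells, against -0.20 over all genes, and 2.44 in WT cells, against -0.07 over all genes. Irf1 was called in neither genotype, and Cmpk2 was called in WT cells. The share of all genes whose libraries did not overlap between days was not computed. Statements below that the days were apart therefore only describe the values of each gene. Calls are at an adjusted p under 0.05 (edgeR quasi-likelihood test, Benjamini-Hochberg over all genes tested), and standard errors (SE) are those of the log2 fold change. A fit over the 11 libraries gave both comparisons. Its p-values rest on the spread between libraries within groups, treated as independent, with no term for a host that KO and WT cells may share.

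The sensors came from low or moderate levels. Ifih1, for MDA5, stood at 83.3, 61.9 and 70.8 CPM in the 3 KO D2 libraries, against 12.2, 9.56 and 10.3 CPM in KO D0. It stood at 57.9, 40.6 and 41.3 CPM in WT D2, against 10.7 and 9.43 CPM in WT D0 (replicates 2 and 3). Every D2 library lay above every D0 library, and the log2 fold change was 2.75 (SE 0.18, edgeR adjusted p = 8.8e-08) in KO cells and 2.21 (SE 0.21, adjusted p = 2.1e-06) in WT cells. Dhx58, for LGP2, stood at 256.9, 204.9 and 220.4 CPM in KO D2, against 27.9, 31.4 and 31.7 CPM in KO D0. In WT it stood at 196.7, 156.7 and 169.7 CPM at D2, against 26.3 and 28.8 CPM at D0. The days were again fully apart, by 7.50-fold in KO cells and 6.33-fold in WT cells. Zbp1, whose product binds left-handed double-stranded nucleic acid and can trigger cell death through RIPK3, stood at 1066, 934 and 969.6 CPM in KO D2, against 93.2, 85.9 and 102.3 CPM in KO D0. WT libraries gave 797, 668 and 727 CPM at D2, against 81.1 and 90.9 CPM at D0. Its log2 fold change was 3.40 (SE 0.12, edgeR adjusted p = 9.6e-10) in KO cells and 3.09 (SE 0.14, adjusted p = 1.1e-08) in WT cells, the highest of the 3 sensors in both genotypes.

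The 3 interferon regulatory factors behaved differently from one another. Irf7, which encodes a factor that drives interferon alpha genes, stood at 909, 821 and 877 CPM in KO D2, against 122.6, 141.5 and 117.2 CPM in KO D0. It stood at 654, 637.5 and 699 CPM in WT D2, against 126.5 and 179.5 CPM in WT D0. D2 was above D0 by 6.84-fold in KO cells and 4.34-fold in WT cells, with no overlap. Irf9, a DNA-binding subunit of the complex that binds the ISRE, changed less. It stood at 272.7, 213.0 and 230.1 CPM in KO D2, against 101.5, 106.7 and 118.1 CPM in KO D0. WT libraries held 200.2, 164.5 and 183.2 CPM at D2, against 97.3 and 111.4 CPM at D0. The log2 fold change of Irf9 was 1.13 (SE 0.13, edgeR adjusted p = 6.5e-06) in KO cells and 0.81 (SE 0.14, adjusted p = 4.0e-04) in WT cells. Irf1, a factor induced by interferon gamma, was already abundant at D0. It stood at 613, 510.3 and 579 CPM in KO D2, against 423, 499 and 578 CPM in KO D0. In WT it stood at 489.9, 426 and 477 CPM at D2, against 424 and 570.0 CPM at D0. The days overlapped in both genotypes, with a log2 fold change of 0.18 in KO cells (95% interval -0.13 to 0.49, edgeR adjusted p = 0.29) and -0.10 in WT cells (-0.45 to 0.25, adjusted p = 0.63).

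Isg15 and Usp18 had the largest log2 fold changes of the 10. Isg15 encodes a ubiquitin-like protein that is attached to other proteins in interferon-treated cells, and Usp18 the protease that removes it and also restrains the type I interferon receptor. Isg15 stood at 674, 544.0 and 493 CPM in KO D2, against 9.70, 8.41 and 11.1 CPM in KO D0. WT libraries held 533, 392.0 and 459.5 CPM at D2, against 8.57 and 7.31 CPM at D0. That was 58.7-fold in KO cells and 58.1-fold in WT cells, and 99.7% of the genes tested had a lower log2 fold change in either genotype. Usp18 stood at 2134, 1923 and 1741 CPM in KO D2, against 41.3, 33.7 and 39.6 CPM in KO D0. It stood at 1754, 1507 and 1607 CPM in WT D2, against 33.3 and 35.1 CPM in WT D0. The 95% intervals of the log2 fold changes of Isg15 and Usp18 overlapped, at 5.46 to 6.29 and 5.35 to 5.97 in KO cells and at 5.36 to 6.36 and 5.20 to 5.94 in WT cells. That of Rsad2, described next, overlapped both, at 4.37 to 5.93 in KO cells and 3.78 to 5.59 in WT cells.

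The neighbouring effector genes parted. Rsad2 encodes viperin, which makes a chain-terminating nucleotide from CTP, and Cmpk2 a mitochondrial kinase that supplies such pyrimidine nucleotides. Rsad2 stood at 326.1, 231.1 and 231.3 CPM in KO D2, against 5.47, 11.7 and 4.90 CPM in KO D0. WT libraries held 235.2, 153.4 and 161.8 CPM at D2, against 9.08 and 5.16 CPM at D0. The gene was 35.5-fold higher at D2 in KO cells and 25.8-fold in WT cells, with no overlap between days. Cmpk2 stood at 33.7, 23.9 and 33.7 CPM in KO D2, against 11.8, 23.8 and 25.4 CPM in KO D0. In WT cells it stood at 77.8, 88.8 and 95.98 CPM at D2, against 20.6 and 22.2 CPM at D0. KO libraries of the 2 days overlapped, and the log2 fold change was 0.58 (SE 0.24, edgeR adjusted p = 0.052), while the WT days were apart, with 2.03 (SE 0.29, adjusted p = 6.0e-05). The KO change of Cmpk2 was called with RLE scaling (0.69, edgeR adjusted p = 0.025), with DESeq2 (0.69, adjusted p = 0.013), with the replicate number as a block across days (0.63, adjusted p = 0.023) and with a trend on GC content removed (1.31, adjusted p = 1.0e-04). It was not called without the filter on low counts (0.54, adjusted p = 0.093), with a mean of at least 5 CPM (0.45, adjusted p = 0.11) or in a fit of the compared groups alone (0.65, adjusted p = 0.057), and it was called in 2 of the 11 fits that left out 1 library (0.25 to 0.71). Per library, the ratio of Rsad2 to Cmpk2 CPM was 9.67, 9.67 and 6.86 in KO D2 and 3.02, 1.73 and 1.69 in WT D2, against 0.193 to 0.490 in KO D0 and 0.232 and 0.440 in WT D0.

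**Figure D2:**
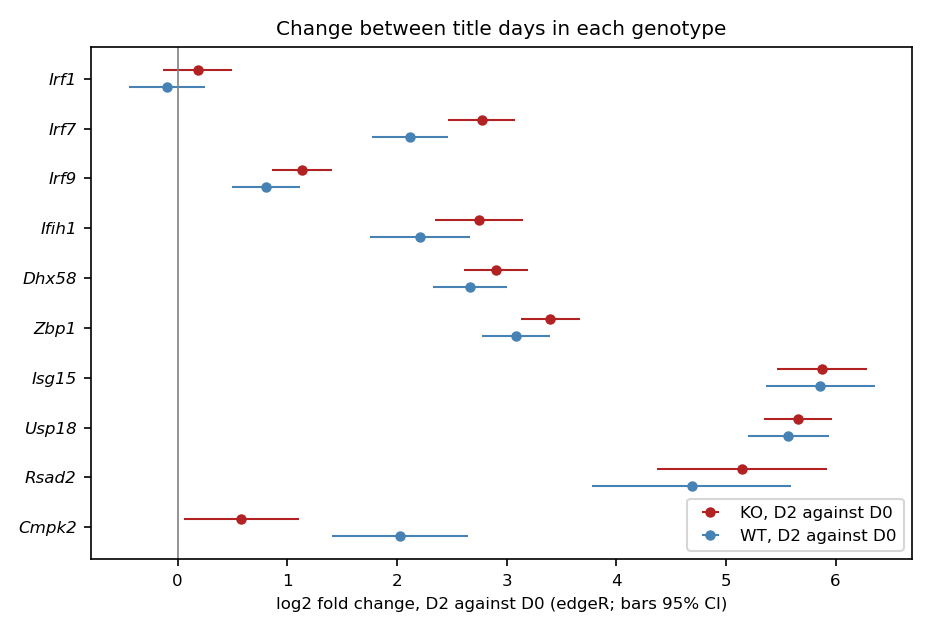
Log2 fold change of D2 against D0 with its 95% interval for each gene, in KO (red, upper) and WT (blue, lower). Isg15 and Usp18 change most in both genotypes, Irf1 spans 0 in both, and Cmpk2 stands at 0.58 in KO cells and 2.03 in WT cells.

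At D2 most of the group stood somewhat higher in KO than in WT cells, and Cmpk2 stood far lower. Ifih1 and Zbp1 were called higher, which is 2 of the 10, where 1.61% of all genes were called higher. Cmpk2 was the 1 gene called lower, where 14.5% of all genes were. The median log2 fold change of the 10 was 0.38, against 0.01 over all genes. KO and WT libraries did not overlap for 6 genes that were higher in KO (12.4% of all genes) and for Cmpk2 (21.3% of all genes were lower without overlap). Isg15, Usp18 and Rsad2 overlapped.

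Same-numbered KO and WT libraries varied together at D2, and within each of the 3 pairs 9 of the 10 genes were higher in KO, with ratios of KO to WT CPM from 1.07 to 1.71. The share of all genes that were higher in all 3 pairs was not computed. With the replicate number as a block in the edgeR fit, 8 genes were called higher (6.56% of all genes) and 1 lower (18.6% of all genes). The block left the sizes close to those without it and brought in Irf1, Irf7, Irf9, Dhx58, Usp18 and Rsad2, while Isg15 had an adjusted p of 0.068.

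**Figure D3:**
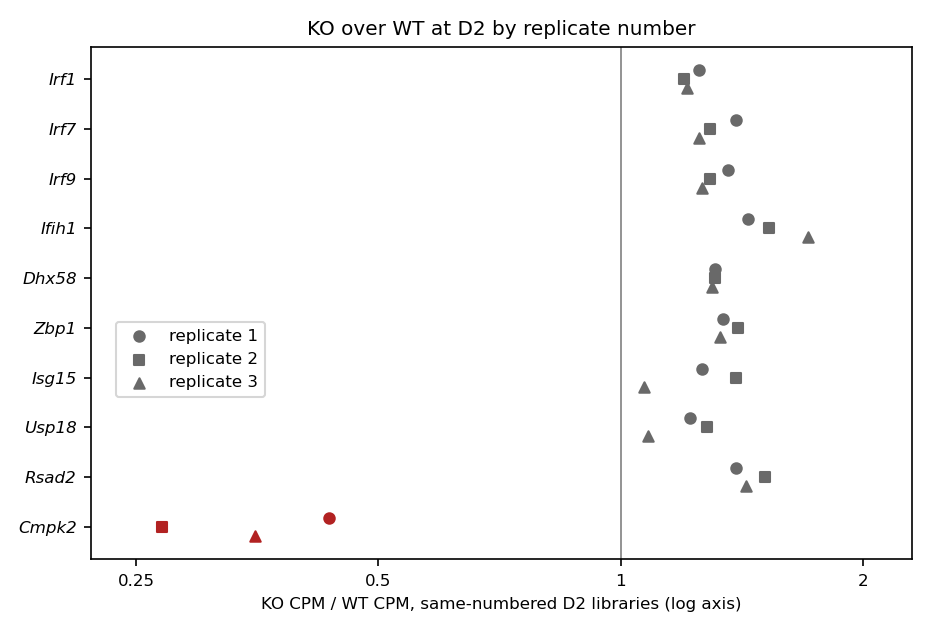
KO CPM over WT CPM (log axis) in same-numbered D2 libraries, with the marker shape giving the replicate number. Cmpk2 (red) lies between 0.269 and 0.434 and all other ratios lie between 1.07 and 1.71.

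By role, all 3 sensors were above WT without overlap. Ifih1 was 1.55-fold higher in KO D2 than in WT D2 (log2 fold change 0.63, SE 0.17, edgeR adjusted p = 0.023), with paired ratios of 1.44, 1.53 and 1.71. Zbp1 was 1.36-fold higher (0.44, SE 0.11, adjusted p = 0.016). Both calls were lost without KO D2 replicate 1 (edgeR adjusted p = 0.13 for Ifih1 and 0.097 for Zbp1), KO D2 replicate 3 (0.067 and 0.054), WT D2 replicate 2 (0.11 and 0.086) or WT D2 replicate 3 (0.11 and 0.064). Dhx58 had a log2 fold change of 0.38 (SE 0.12), with an adjusted p of 0.054 in edgeR and 0.0030 with the block. Among the factors, Irf7 had 0.39 (SE 0.13, edgeR adjusted p = 0.066, with the block 0.047), Irf9 0.39 (SE 0.13, adjusted p = 0.056, with the block 0.0026) and Irf1 0.29 (SE 0.14, adjusted p = 0.23, with the block 0.012). All 3 stood above WT in every KO library. Of the ISG15 genes, Isg15 had 0.31 (95% interval -0.03 to 0.64, edgeR adjusted p = 0.24) and Usp18 0.25 (0.00 to 0.50, adjusted p = 0.19, with the block 0.026). Rsad2 had 0.52 (-0.12 to 1.16, edgeR adjusted p = 0.32), and the block gave an adjusted p of 0.0011.

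Cmpk2 at D2 was at 0.348 of its WT level, with a log2 fold change of -1.52 (SE 0.24, edgeR adjusted p = 9.0e-04). The call was made in each of the 11 fits that left out 1 library, with log2 fold changes from -1.62 to -1.38. The Cmpk2 transcript holds a stretch of high GC content, and its highest share of G and C in a 100-base window was 79%, against 63% to 73% for the other 9 genes. This window starts at base 329 of a transcript of 3200 bases. Among the 2265 tested genes within 2 percentage points of that value, the median log2 fold change of KO D2 against WT D2 was -0.59, 44% were called lower, and 15.5% had a lower log2 fold change than Cmpk2. For the other 9 genes, tested genes of like GC had medians from 0.05 (Ifih1) to 0.12 (Isg15). Between 71.2% (Usp18) and 95.3% (Ifih1) of such genes had a lower log2 fold change than the gene itself. When a smooth trend on this GC measure was removed from each library, the log2 fold change of Cmpk2 was -0.93 (edgeR adjusted p = 0.0089), with the block as well -0.95 (adjusted p = 7.2e-05). The same fit left Ifih1 at 0.70 (adjusted p = 0.013) and Zbp1 at 0.31 (adjusted p = 0.057), and with the block as well Irf9, Dhx58, Ifih1, Zbp1 and Rsad2 were called higher. Calls over all 13711 genes tested moved too. There 805 were called higher with the GC trend removed and 1737 with the block as well, against 221 with neither. The numbers called lower were 1137, 1719 and 1986. The share of genes called lower in KO D2 was 1.18% where the GC measure was under 70% and 33.2% where it was from 75% to under 80%.

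**Figure D4:**
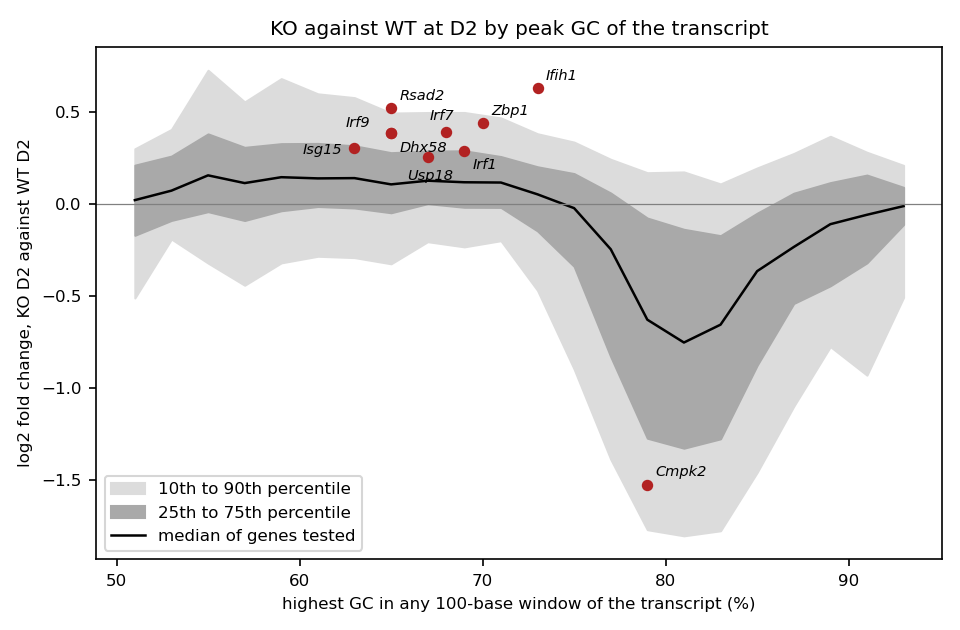
Log2 fold change of KO D2 against WT D2 by the highest GC percentage in any 100-base window of the transcript. The line is the median and the bands the 25th to 75th and 10th to 90th percentiles of the genes tested in bins of 2 percentage points, and red points are the 10 genes, of which 9 lie at 63% to 73% and above 0 and Cmpk2 at 79% and -1.52.

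At D0 none of the 10 genes was called between KO and WT cells, where 0.0948% of all genes were called higher and 0.0583% lower. Log2 fold changes ran from -0.27 for Irf7 to 0.29 for Isg15, every edgeR adjusted p was 0.9992, and KO and WT libraries overlapped for all 10. Of the 10, 0 had an unadjusted p under 0.05 and DESeq2 called 0. Over all genes tested, 408 were higher and 189 lower at an unadjusted p under 0.05. Cmpk2 stood at -0.08 (95% interval -0.66 to 0.51), an interval that does not reach its D2 difference. WT D0 holds 2 libraries, so these intervals are wide.

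The change from D0 to D2 differed between genotypes for 1 of the 10 genes, Cmpk2, which was lower by 1.45 on the log2 scale in KO than in WT cells (log2 difference -1.45, SE 0.36, edgeR adjusted p = 0.037). Over all genes 5.72% were called lower in this test and 0.124% higher. The Cmpk2 call was made without KO D0 replicate 1 or WT D2 replicate 1 and was not made without any other library, with adjusted p from 0.0036 to 0.18 and log2 differences from -1.72 to -1.26. It was also not made with RLE scaling (adjusted p = 0.061), without the filter on low counts (0.055) or with the GC trend removed (-0.84, adjusted p = 0.20), and with the block it was -1.74 (adjusted p = 5.0e-04). The difference was 0.66 for Irf7 (SE 0.20, edgeR adjusted p = 0.074), 0.54 for Ifih1 (SE 0.26, adjusted p = 0.31) and 0.01 for Isg15 (95% interval -0.51 to 0.54). With the block that of Ifih1 was 0.66 (adjusted p = 0.024). In this test the block also pairs the D0 libraries by number. WT D0 has no replicate 1, so its D0 part rests on replicates 2 and 3, whose pairs correlated at 0.0171 and 0.554. The comparisons of days and of genotypes use the same 11 libraries and are not separate evidence.

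Per kilobase of transcript the order of levels changed with the day. At D0 Irf1 was highest, at 233.9 ± 36.2 CPM per kilobase in KO D0 (SD, n = 3) and 232.6 ± 48.3 in WT D0 (n = 2). Irf7 and Zbp1 came next, at 56.8 ± 5.70 and 47.2 ± 4.13 in KO D0, and Ifih1 and Rsad2 were lowest, at 1.96 ± 0.25 and 1.94 ± 0.996, which differ by less than their SD. At D2 Usp18 was highest, at 1091 ± 111 CPM per kilobase in KO D2 and 916 ± 70.03 in WT D2 (3 libraries in each group), followed by Isg15 at 754 ± 123 and 610.3 ± 93.0. Zbp1 (498 ± 34.4 in KO D2 and 367 ± 32.4 in WT D2), Irf7 (389 ± 19.9 and 297 ± 14.3) and Irf1 (265.5 ± 24.5 and 217 ± 15.8) came below them. Dhx58, Irf9 and Rsad2 came next, at 94.3 ± 11.1, 80.6 ± 10.4 and 69.5 ± 14.5 in KO D2. Cmpk2 was the lowest in KO D2, at 9.51 ± 1.77, where Ifih1 stood at 13.2 ± 1.96 CPM per kilobase. In WT D2 Ifih1 was the lowest, at 8.52 ± 1.79, and Cmpk2 stood at 27.4 ± 2.87.

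Over the 11 libraries, log2 CPM of 8 of the genes, all but Irf1 and Cmpk2, moved together, with Pearson's r between 0.95 and 0.999 for every pair. These points fall into the 2 days, so r mostly reflects that split and is given with no p. Cmpk2 correlated with the other genes at 0.53 to 0.69, apart from Irf1 at -0.08. By the same measure over 9095 other genes, the closest to Usp18 were Bst2 (r = 0.9989), Oasl1 and Psma5, those to Zbp1 were Irgm1, Bst2 and Mx2, and those to Ifih1 were Parp11 (0.9988), Ddx58 and Pttg1. Closest to Dhx58 were Mx1, Parp9 and Calr, to Irf7 Mx2, Sec23b and Ifit1, and to Rsad2 Isg20, Tgtp1 and Hspa5. Closest to Isg15 were Psma5, Bst2 and Stt3a, to Irf9 Cnp, Fgr and Plaat3, to Irf1 Gosr2, Arpc1b and Rab8a, and to Cmpk2 Ccna2 (0.98), Ehd4 and Creld2.

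Other genes of the pathway were read from lists drawn up beside the 10. Among 18 further sensors and adaptors, 17 were tested. Of these, 13 were higher at D2 than at D0 in KO cells and 12 in WT cells, with 0 lower in either. Over all genes 27.0% were higher and 34.5% lower in KO cells, and 27.5% and 26.0% in WT cells. Tlr7, an endosomal RNA receptor, rose by a log2 fold change of 4.72 in KO cells and 4.34 in WT cells, and Eif2ak2, for the RNA-activated kinase PKR, by 2.86 and 2.59. Between genotypes at D2, 1 of the 17 was higher and 1 lower (1.61% and 14.5% of all genes). With the block 6 were higher and 1 lower (6.56% and 18.6% of all genes). Sting1, an adaptor of DNA sensing, was higher (0.42, SE 0.12, edgeR adjusted p = 0.036), a call that was lost with the GC trend removed (0.30, adjusted p = 0.23) and in 7 of the 11 fits that left out 1 library, among them each fit without a D2 library. Cgas, the DNA sensor upstream of it, was lower (-1.36, SE 0.22, adjusted p = 9.5e-04), and its GC measure is 80%. With the GC trend removed it had -0.69 (adjusted p = 0.0082).

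Of 30 other interferon-stimulated genes, 30 were higher at D2 than at D0 in KO cells (27.0% of all genes) and 29 in WT cells (27.5%). Among them was Ifi44, with log2 fold changes of 7.20 in KO cells and 6.53 in WT cells. At D2, 5 of the 30 were higher in KO than in WT and 0 lower (1.61% and 14.5% of all genes). With the block 21 were higher and 1 lower (6.56% and 18.6% of all genes). The 5 became 8 when WT D2 replicate 1 was left out, 3 when KO D0 replicate 2 or KO D2 replicate 3 was, and 1 when KO D2 replicate 1, WT D2 replicate 2 or WT D2 replicate 3 was. Oasl2 stood at 171.9 ± 4.77 CPM in KO D2, against 114.6 ± 4.16 CPM in WT D2 (SD, 3 libraries each, log2 fold change 0.58, SE 0.11, edgeR adjusted p = 0.0030), and its call was made in every alternative run. Oas3, which makes the second messenger of RNase L, stood at 305.0 ± 12.1 CPM in KO D2 and 210.1 ± 21.6 CPM in WT D2 (0.54, SE 0.14, adjusted p = 0.017), a call lost with the GC trend removed (0.39, adjusted p = 0.075). The list median at D2 was 0.33, against 0.01 over all genes. Of 5 other ISG15 system genes, 3 were higher and 1 lower at D2 than at D0 in each genotype. Over all genes 27.0% were higher and 34.5% lower in KO cells, and 27.5% and 26.0% in WT cells. Herc6, the mouse ligase, was higher by 3.55 in KO cells and 3.06 in WT cells on the log2 scale, and Herc3 was the lower one, at -0.94 in KO cells and -1.46 in WT cells. Of these 5, 1 was higher in KO at D2 (1.61% of all genes) and 3 with the block (6.56% of all genes). The 1 was Herc3 (0.50, edgeR adjusted p = 0.049). Its call was lost with the GC trend removed (0.37, adjusted p = 0.11) and in 8 of the 11 fits that left out 1 library.

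Of 14 interferon receptor and JAK-STAT genes, 0 were higher and 5 lower in KO D2 than in WT D2, where 1.61% of all genes were called higher and 14.5% lower. With the block 1 was higher and 6 were lower (6.56% and 18.6% of all genes). Ifnar2, a chain of the type I interferon receptor, stood at 32.2 ± 3.83 CPM in KO D2 and 76.8 ± 15.1 CPM in WT D2 (log2 fold change -1.26, SE 0.18, edgeR adjusted p = 5.2e-04), and Jak1 at 461 ± 31.9 CPM and 930.1 ± 189 CPM (-1.01, SE 0.15, adjusted p = 5.4e-04). Their GC measures are 78% and 80%, so that they lie in the range where many genes were lower. With the GC trend removed both calls were still made, at -0.73 for Ifnar2 (adjusted p = 0.0046) and -0.36 for Jak1 (adjusted p = 0.028). Ptpn1, also among the 5, had -1.02 (SE 0.17, edgeR adjusted p = 0.0013). Its call was lost with the GC trend removed (-0.37, adjusted p = 0.075). Between days, 5 of the 14 were higher and 6 lower at D2 than at D0 in KO cells (27.0% and 34.5% of all genes). In WT cells 6 were higher and 4 lower (27.5% and 26.0% of all genes). Stat2 was higher at D2 by 1.81 in KO cells and 1.49 in WT cells on the log2 scale. Jak1 was lower at D2, at -2.32 in KO cells and -1.39 in WT cells, and so was Ifnar2, at -2.29 and -1.01. Of 9 other interferon regulatory factor genes, 0 were higher and 3 lower in KO D2 (1.61% and 14.5% of all genes). With the block 1 was higher and 3 were lower (6.56% and 18.6% of all genes). Among the 3 was Irf8 (-0.77, edgeR adjusted p = 9.1e-04), at 2915 ± 262 CPM in KO D2 and 4983 ± 664 CPM in WT D2. With the GC trend removed Irf8 had -0.33 (adjusted p = 0.070), and its GC measure is 77%.

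Pyrimidine kinases, the enzyme class of CMPK2, had 4 of 9 lower and 0 higher in KO D2, where 14.5% of all genes were called lower and 1.61% higher. Uck2 stood at 19.9 ± 3.41 CPM in KO D2 and 64.0 ± 26.4 CPM in WT D2 (-1.68, SE 0.35, edgeR adjusted p = 0.0045) and Uck1 at 43.6 ± 3.90 and 83.2 ± 6.58 CPM (-0.93, SE 0.14, adjusted p = 6.4e-04). Their GC measures are 81% and 78%, and with the GC trend removed Uck2 had -0.97 (adjusted p = 0.023) and Uck1 -0.42 (adjusted p = 0.033). Tk2, a mitochondrial kinase, had -0.75 (adjusted p = 0.0035) and -0.09 with the GC trend removed (adjusted p = 0.77). Of 6 partners of ZBP1 in cell death, 1 was lower in KO D2 (3 with the block), where 14.5% of all genes were (18.6% with the block). It was Ripk1 at -1.27 (edgeR adjusted p = 0.0097), a call lost without KO D2 replicate 1 or WT D2 replicate 2. Between days, 2 of the 6 were higher and 2 lower at D2 than at D0 in KO cells (27.0% and 34.5% of all genes). In WT cells 2 were higher and 0 lower (27.5% and 26.0% of all genes). Mlkl, the executioner of necroptosis, was higher at D2 than at D0 by 2.31 in KO cells and 2.21 in WT cells on the log2 scale. In KO cells Ripk1 was lower at D2 (-1.25, edgeR adjusted p = 0.0027), as was Fadd, an adaptor of death signalling (-0.63, adjusted p = 0.024).

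Interferon genes themselves were at the edge of detection apart from Ifng. Ifng, for interferon gamma, stood at 5941, 16220 and 7320 CPM in KO D2, against 6482, 16660 and 7141 CPM in WT D2. Replicate 2 was the highest in both genotypes, and the groups overlapped. Ifna4 had 51, 18 and 20 counts in the KO D2 libraries, against 2, 1 and 1 counts in WT D2 and 0 counts in every D0 library (KO D2 against WT D2, edgeR adjusted p = 0.0028). Ifna1 had 58, 34 and 15 counts in KO D2, against 10, 2 and 0 counts in WT D2 (adjusted p = 0.025), and Ifna2 had 44, 22 and 27 counts, against 12, 2 and 1 counts (adjusted p = 0.043). The calls of Ifna1 and Ifna2 were lost without single D2 libraries, and that of Ifna4 was not. Of 8 interferon genes listed, 4 passed the filter on low counts and were tested. Ifna1, Ifna2 and Ifna4 passed it only through KO D2, the group where they are high. Their adjusted p are therefore not support for a difference, and the counts are given as a description. Interferon alpha genes are near-identical copies, so that their separate counts are uncertain.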

How the data were processed

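RNA-seq was analysed for 11 libraries of sorted Ly49H+ NK cells. The authors deposited whole-number counts per Entrez gene. The submitters' processing notes name build mm10 and, without their roles, DESeq2 1.22.2, Salmon 0.13.1 (also entered as 13.1), Trimmomatic 0.36 and bcl2fastq 2.20.0.422, so the counts may be rounded estimates, and strand handling is not given in the sources used here. Per the labels' protocols, libraries came from low-input amplified cDNA. RefSeq (GRCm38.p6) named 24387 of 24421 IDs.

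All 11 libraries entered 1 edgeR 4.0.16 quasi-likelihood fit in R 4.3.3 (robust, TMM scaling, filterByExpr) with 4 group means, which left 13711 genes. Adjusted p (Benjamini-Hochberg) runs over these, with 0.05 as the threshold. Scaled CPM were computed from the counts, and 3 counts, the floor of detection, equal 0.107 to 0.154 CPM per library; floors cover counting error only. The GC measure is the highest GC share in any 100 bases of the longest matched GENCODE M21 transcript. The test was checked on simulated data. Replicates differed beyond counting noise, and none was merged.

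Deviations of same-numbered KO and WT libraries from their group means correlated at 0.397, 0.372 and 0.247 at D2, so the numbers were taken as pairs there. At D0 the 2 shared numbers gave 0.0171 and 0.554, while KO replicate 1 with WT replicate 2, of unlike number, gave 0.518. Deviations of the 2 WT D0 libraries from their mean are exact opposites. Each D0 correlation with one is therefore minus that with the other, and these values cannot decide on pairing. Deviations from a mean of 3 libraries sum to 0, so the D2 correlations are not independent of each other either. The block within days paired the D0 numbers too. The numbers come from the titles.

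The 10 genes and the lists were chosen with earlier results of these data known. Named genes are the 10, Ldha, the 3 genes most correlated with each over the libraries (mean of at least 5 CPM), and from each list up to 3 called genes per direction and comparison with the smallest p; fewer are named, and 1 list gene is not reported here. Alternatives were RLE scaling, DESeq2 1.42.0, no filter, a mean of at least 5 CPM, only the compared groups, a replicate block within or across days, and leaving out each library. The GC trend, alone or with the block, was chosen after seeing the data.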

Additional observations from a re-analysis of the deposited data

Results flagged for a closer look

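The change of Cmpk2 from D0 to D2 differed between the genotypes, with a log2 difference of KO change minus WT change of -1.45 (SE 0.36, edgeR adjusted p = 0.037), and this test of the difference is what brought it up. Cmpk2 was higher at D2 in each of the 3 WT D2 libraries than in both WT D0 libraries, while the KO libraries of the 2 days overlapped. The value with the GC trend removed was -0.84 (adjusted p = 0.20).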

How the results depend on the processing

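The count of the 10 genes called higher in KO D2 than in WT D2 was 2, and it was 5 with RLE scaling, 5 with a mean of at least 5 CPM, 8 with the replicate block, 5 with the block across days, 6 with only the compared groups, 5 with DESeq2, 1 with the GC trend removed, 5 with both the block and the GC trend, and 0 to 3 when single libraries were left out. In the difference between genotypes the count called higher was 0, and it was 1 with a mean of at least 5 CPM, 1 with the block, 2 with the block across days, 1 with DESeq2 and 1 with the block and the GC trend. The count called lower there was 1, and it was 0 with RLE scaling, 0 without a filter, 0 with the GC trend removed and 0 to 1 when single libraries were left out. The cause of these moves was not tested. The counts for D2 against D0, 8 in KO cells and 9 in WT cells, stayed at 8 to 9 and at 9 in every alternative run, and the count of 0 at D0 stayed at 0, DESeq2 included. The block could not be fitted within days for D2 against D0. Over all genes, KO D2 against WT D2 gave 221 higher and 1986 lower, and 440 and 1762 with RLE scaling, 697 and 1958 with DESeq2, 490 higher with only the compared groups, 900 higher with the block, 442 higher across days, 805 and 1137 with the GC trend removed, 1737 higher with the block and the GC trend, and 91 to 253 higher without single libraries. The difference gave 17 higher and 784 lower, and 475 lower with RLE scaling, 619 and 1997 with the block, 139 and 1719 across days, 92 higher with DESeq2, 124 lower with the GC trend removed, 1079 and 1229 with the block and the GC trend, and 0 to 87 higher and 4 to 1404 lower without single libraries. KO D0 against WT D0 gave 13 higher and 8 lower, and 41 and 160 with the block, 2 and 2 with only the compared groups, 6 and 5 with a mean of at least 5 CPM, 25 and 13 with DESeq2, and 55 and 234 with the block and the GC trend. RLE scaling moved the median of all genes by 0.11 for KO D2 against KO D0 and by 0.10 for the difference, and the GC trend moved that of the first by 0.14. Uncalled values near 0 changed sign. For KO D0 against WT D0 (log2 fold change), Irf1 was 0.0080, and it was -0.0047 with RLE scaling and -0.0047 with DESeq2, -0.023 without a filter, -0.021 with only the compared groups, -0.035 with the GC trend removed, and -0.22 to 0.22 without single libraries. Ifih1 was 0.088, and -0.020 with the block, -0.048 across days, -0.060 with the block and the GC trend, and -0.036 to 0.15 without single libraries. Irf9 was 0.060, and -0.061 to 0.15 without single libraries. Rsad2 was 0.057, and -0.019 across days and -0.47 to 0.50 without single libraries. Cmpk2 was -0.075, and 0.20 with the block, 0.14 with the block and the GC trend, and -0.28 to 0.18 without single libraries. For WT D2 against WT D0, Irf1 was -0.36 to 0.081 without single libraries. In the difference, Isg15 was -0.11 with the GC trend removed, -0.14 with the block as well, and -0.12 to 0.13 without single libraries, and Usp18 was -0.025 with the GC trend removed. Ldha in KO D2 against KO D0 was 0.14, and -0.083 with the GC trend removed.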
